A study of Mus musculus with 8 samples.

Results

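Pou5f1, Sox2 and Nanog encode the transcription factors at the centre of the gene network that keeps mouse embryonic stem cells pluripotent. They were taken by gene name and are 3 of the 57010 genes in the count table and 3 of the 17976 genes abundant enough to be tested. RNA sequencing covered 8 libraries of mouse embryonic stem cells, 2 in each of 4 groups. HSVTK cells carry the 2C::HSVTK reporter, which the study built so that ganciclovir (GANC) would remove cells in the 2C-like state, a rare state of these cultures that expresses genes of the early cleavage embryo. The libraries are labelled HSVTK GANC, HSVTK DMSO, Control GANC and Control DMSO, DMSO being the vehicle. The sources used here do not give what the Control cells carry, whether HSVTK cells are 1 clone, or the dose and length of treatment. They also do not tie the libraries of a group to separate cultures, so that p-values here rest on a spread between libraries that may be technical.

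Pou5f1 encodes OCT4, a POU-domain protein, and Sox2 encodes an HMG-box protein. Both bind DNA side by side at a joint site of an OCT and a SOX motif, and with the homeobox protein NANOG they occupy the enhancers of one another and of many other pluripotency genes. Embryonic stem cells are sensitive to the level of OCT4, since both too much and too little of it leads to differentiation, and NANOG varies from cell to cell in culture. In 2C-like cells the proteins of the 3 genes are known to be low while their RNA persists. Proteins were not measured here. In bulk RNA, fewer cells with a transcript and less of it per cell cannot be told apart.

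Libraries held 29704460 to 34184475 counts, and replicates of every group differed by more than counting noise. The culture was embryonic stem-like in each group: the summed level of 10 other embryonic stem markers was 4713 to 4900 CPM (counts scaled to a library of 1000000) in HSVTK GANC, 5608 to 5703 in HSVTK DMSO, 4641 to 4832 in Control GANC and 4449 to 4532 in Control DMSO. Marker lists of primitive endoderm, trophectoderm, primitive streak, neuroectoderm and fibroblasts each summed to between 2.35 and 43.8 CPM. The 2C-like genes went against the label of a treatment meant to remove these cells. Their summed level was 57.5 to 62.6 CPM in the libraries labelled HSVTK GANC, against 29.8 to 30.4 CPM in those labelled HSVTK DMSO, 22.3 to 28.3 in Control GANC and 28.0 to 28.1 in Control DMSO. Of 9 tested 2C-like genes, 7 rose and none fell in HSVTK GANC against HSVTK DMSO, which is 77.8% called beside 28.5% of all tested genes. Group names below are therefore those on the labels, every direction drawn from the libraries labelled HSVTK GANC or HSVTK DMSO rests on those labels, and results are also given without single libraries where that changes them. How these genes bear on the results below was not tested.

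The proximal promoters are shown as the sequence just before each gene's start. More distant sequence, such as enhancers that the factors occupy, is not shown. Each is the stretch of 250 bases before the gene's start in RefSeq on GRCm38.p6, plus strand, 5′ to 3′, with motif matches in capitals. The submitters' processing notes name GRCm39 for the deposited files, so these coordinates are those of the sequence source only, and the source lists 2 starts each for Pou5f1 and Nanog, of which 1 is shown. Motifs searched on both strands were the SOX core CATTGT, the octamer part ATGCAAA, their composite CATTGTNATGCAAA, the GC box GGGCGG and the nuclear receptor motif AGGTCA, and the composite overlaps both of its parts.
Pou5f1, chr17:35505782-35506031: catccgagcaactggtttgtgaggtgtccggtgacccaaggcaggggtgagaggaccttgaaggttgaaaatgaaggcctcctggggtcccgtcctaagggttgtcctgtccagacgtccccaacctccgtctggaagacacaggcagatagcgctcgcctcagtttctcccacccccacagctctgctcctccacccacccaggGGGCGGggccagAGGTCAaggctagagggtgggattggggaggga
Sox2, chr3:34649745-34649994: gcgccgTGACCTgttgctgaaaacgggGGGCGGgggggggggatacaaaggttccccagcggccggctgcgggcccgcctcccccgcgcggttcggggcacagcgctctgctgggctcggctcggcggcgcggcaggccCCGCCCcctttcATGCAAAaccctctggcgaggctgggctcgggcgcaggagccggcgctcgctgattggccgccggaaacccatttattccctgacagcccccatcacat
Nanog, chr6:122707239-122707488: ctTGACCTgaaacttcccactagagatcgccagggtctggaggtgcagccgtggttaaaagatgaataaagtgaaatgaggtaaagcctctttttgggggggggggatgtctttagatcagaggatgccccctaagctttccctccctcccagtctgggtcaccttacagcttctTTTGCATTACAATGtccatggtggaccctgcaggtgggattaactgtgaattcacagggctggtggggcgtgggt
The Nanog window held the composite on the minus strand, read on the plus strand as TTTGCATTACAATG, from 75 to 62 bases before the start. Of 32851 promoter windows of the same length, 10.7% held the SOX core and 0.00609% this composite, and the windows with it belonged to 1 gene of 27025, Nanog. The Sox2 window held an octamer part 99 to 93 bases before the start, a motif in 4.12% of windows, and GC boxes on both strands. The Pou5f1 window held a GC box and a nuclear receptor motif close together, 45 to 40 and 33 to 28 bases before the start. GC boxes occurred in 32.7% of windows and nuclear receptor motifs in 14.0%, and the Sox2 and Nanog windows also held a nuclear receptor motif, near their far end. The GC content was 62.0% for Pou5f1, 72.0% for Sox2 and 52.0% for Nanog. A match describes the letters of these windows and is not a measured site.

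Sox2 (ENSMUSG00000074637) was the only one of the 3 genes called with GANC in HSVTK cells. It had 371 and 343 CPM in the libraries labelled HSVTK GANC, against 439 and 448 CPM in those labelled HSVTK DMSO. Both HSVTK GANC libraries lay below all 6 other libraries of the study, a pattern whose share over all genes was not computed. Against the HSVTK DMSO libraries alone, 31.9% of tested genes were lower without overlap. The log2 fold change was -0.31 (95% interval -0.43 to -0.20), a 0.804-fold level, with an adjusted p of 6.61e-05 in edgeR's quasi-likelihood test. Of the 3 factors, 1 was called in this comparison, beside 28.5% of all tested genes, so that a call alone was common here. Among the 2171 genes with a mean of at least 100 CPM, 12.2% had a larger change in either direction. The call remained without each single library, with the log2 fold change between -0.37 and -0.26.

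In Control cells Sox2 stood the other way. It had 488 and 493 CPM in Control GANC, against 428 and 437 CPM in Control DMSO, higher without overlap as were 25.0% of tested genes. The log2 fold change was 0.18 (95% interval 0.07 to 0.29) and the adjusted p 0.0365, the only call among the 3 factors where 8.08% of tested genes were called. This call was weak. Its adjusted p was 0.228 without Control DMSO replicate 1, 0.174 without Control DMSO replicate 2 and 0.0827 without Control GANC replicate 2. It was 0.0786 and 0.0784 without the first and the second HSVTK DMSO library, which enter through the shared estimate of spread. It was also lost with limma on FPKM (0.0647) and in a fit of only these libraries (0.0643).

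The responses of Sox2 to GANC differed between the cell groups. The HSVTK response was lower than the Control response by a log2 difference of -0.50 ± 0.08 (SE), with an adjusted p of 1.84e-05. Of the 3 factors, 1 passed this test, beside 25.6% of all tested genes. Leaving out single libraries gave -0.55 to -0.44, with every call kept. Across groups, Sox2 averaged 357 ± 20.1 CPM in HSVTK GANC, 444 ± 6.49 in HSVTK DMSO, 490 ± 3.59 in Control GANC and 433 ± 6.14 in Control DMSO (SD, n = 2 each). Control GANC was highest and HSVTK GANC lowest, while both DMSO groups lay next to each other, and their difference did not pass the test (adjusted p 0.656).

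**Figure D1:**
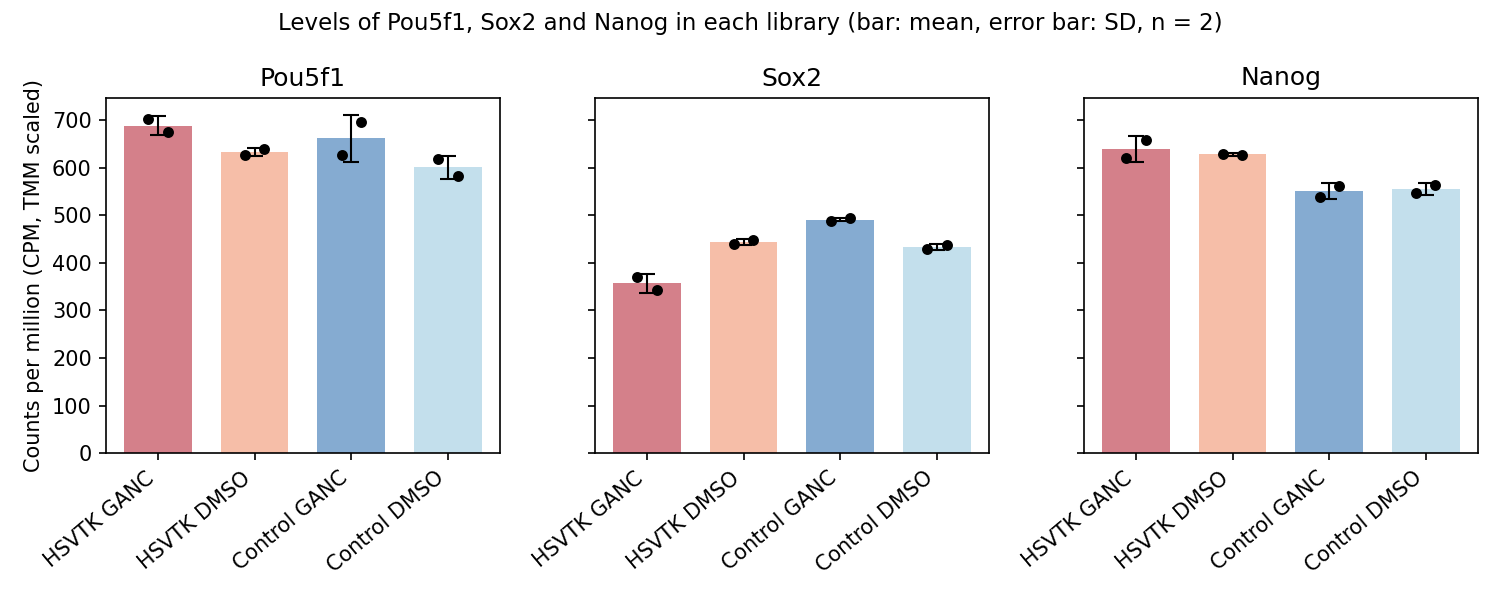
Level of each factor in CPM (vertical axes, from 0) by group, with the mean of 2 libraries as a bar, the SD as an error bar and each library as a point. Sox2 is lowest in both HSVTK GANC libraries, Pou5f1 is higher in each GANC group than in its DMSO group, and Nanog is higher in the HSVTK groups than in the Control groups.

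Pou5f1 (ENSMUSG00000024406) was slightly higher with GANC in both cell groups, without passing the test in either. It had 702 and 674 CPM in the libraries labelled HSVTK GANC, against 627 and 639 CPM in those labelled HSVTK DMSO, and the libraries did not overlap. The log2 fold change was 0.12 (95% interval 0.01 to 0.23), with an adjusted p of 0.108. It had 626 and 696 CPM in Control GANC, against 618 and 582 CPM in Control DMSO, again without overlap. Here the log2 fold change was 0.14 (95% interval 0.03 to 0.25), with an adjusted p of 0.128. Higher libraries without overlap were seen in 32.4% of tested genes in HSVTK cells and 25.0% in Control cells.

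The Pou5f1 result moved both ways when single libraries were left out. In Control cells the log2 fold change was 0.0632 (adjusted p 0.634) without Control GANC replicate 2, and in HSVTK cells it was 0.0916 (adjusted p 0.353) without HSVTK GANC replicate 1. Calls were gained on leaving out Control GANC replicate 1. Without it, the adjusted p was 0.0383 in HSVTK cells, with a log2 fold change of 0.12, and 0.00935 in Control cells, with a log2 fold change of 0.21. The replicates of Control GANC differed more for Pou5f1, by 0.15 on the log2 scale, than those of any other group for any of the 3 factors. Scaling by library size in place of TMM also gave a call in HSVTK cells, with a log2 fold change of 0.15 and an adjusted p of 0.0309. No difference between the responses of the cell groups was detected, with a log2 value of -0.02 (95% interval -0.18 to 0.14, adjusted p 0.895). This value was 0.01 with library size scaling, within its error of 0.

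Pou5f1 averaged 688 ± 19.3 CPM in HSVTK GANC, 633 ± 8.92 in HSVTK DMSO, 661 ± 49.4 in Control GANC and 600.0 ± 25.0 in Control DMSO (SD, n = 2 each). In order of level, the Control GANC libraries overlapped those of HSVTK GANC above them and HSVTK DMSO below them. HSVTK DMSO stood above Control DMSO without overlap, but their log2 difference of 0.08 did not pass the test (adjusted p 0.313).

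Nanog (ENSMUSG00000012396) showed no detectable change with GANC. It had 619 and 658 CPM in the libraries labelled HSVTK GANC, against 629 and 626 CPM in those labelled HSVTK DMSO, so that the HSVTK DMSO values fell between those of HSVTK GANC. The log2 fold change was 0.03 (95% interval -0.08 to 0.13, adjusted p 0.769). It had 538 and 562 CPM in Control GANC, against 547 and 564 CPM in Control DMSO, which overlapped. The log2 fold change was -0.01 (95% interval -0.12 to 0.09, adjusted p 0.917). The responses differed by a log2 value of 0.04 (95% interval -0.11 to 0.19, adjusted p 0.752). The intervals span a 0.945- to 1.10-fold level in HSVTK cells and a 0.919- to 1.07-fold level in Control cells.

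Nanog instead differed between the cell groups. Under DMSO, the libraries labelled HSVTK DMSO had 629 and 626 CPM against 547 and 564 CPM in Control DMSO, both higher than either Control library. The log2 fold change was 0.18 (95% interval 0.07 to 0.28, adjusted p 0.00926). Of the 3 factors, 1 was called, beside 33.7% of all tested genes, and all 3 were higher without overlap, as were 33.7% of all tested genes. The call of Nanog ended when Control DMSO replicate 1 (adjusted p 0.132), HSVTK DMSO replicate 1 (0.0848) or HSVTK DMSO replicate 2 (0.0708) was left out. Under GANC, both libraries labelled HSVTK GANC were above both of Control GANC, as in 30.2% of tested genes, with a log2 fold change of 0.22 (95% interval 0.11 to 0.32, adjusted p 0.00253). This call remained without each single library, with a highest adjusted p of 0.0425. Summed levels of marker lists of other cell types also differed between the cell groups, and such a sum can rest on few genes. The 6 neuroectoderm markers summed to 10.2 to 11.2 CPM in HSVTK GANC, 11.2 to 12.5 in HSVTK DMSO, 26.2 to 29.3 in Control GANC and 42.7 to 43.8 in Control DMSO. The 7 fibroblast markers summed to 20.4 to 21.1 CPM in HSVTK GANC, 21.1 to 24.2 in HSVTK DMSO, 14.9 to 17.2 in Control GANC and 10.2 to 11.5 in Control DMSO. The 8 primitive endoderm markers summed to 9.96 to 9.98 CPM in HSVTK GANC, 9.46 to 11.4 in HSVTK DMSO, 5.01 to 6.28 in Control GANC and 6.50 to 7.39 in Control DMSO, and no marker of these lists was at 0 in all libraries. Of 4 tested neuroectoderm markers, 1 was called under each treatment, Pax6, which made up most of the sum. Of 4 fibroblast markers, 2 were called higher under DMSO and 1 under GANC, where the list's median log2 fold change was -0.08. Of 8 primitive endoderm markers, 2 were called higher under DMSO and 4 under GANC, fewer without either HSVTK GANC library. All tested genes were called at 33.7% under DMSO and 26.1% under GANC. The part of these markers in the difference of Nanog was not tested. Group means of Nanog were 639 ± 27.3 CPM in HSVTK GANC, 628 ± 2.45 in HSVTK DMSO, 550 ± 16.8 in Control GANC and 555 ± 12.0 in Control DMSO (SD, n = 2 each).

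The same comparison under GANC, which uses libraries of both drug comparisons, called 2 of the 3 factors beside 26.1% of all tested genes. Sox2 was lower in HSVTK GANC than in Control GANC without overlap, as were 29.4% of tested genes, with a log2 fold change of -0.46 (95% interval -0.57 to -0.35, adjusted p 2.07e-07). Of genes with at least 100 CPM, 5.62% had a larger difference than Sox2 and 23.8% a larger one than Nanog. Under DMSO the log2 difference of Sox2 was 0.04 (95% interval -0.07 to 0.15, adjusted p 0.656). Pou5f1 overlapped under GANC, with a log2 difference of 0.06 (adjusted p 0.494).

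**Figure D2:**
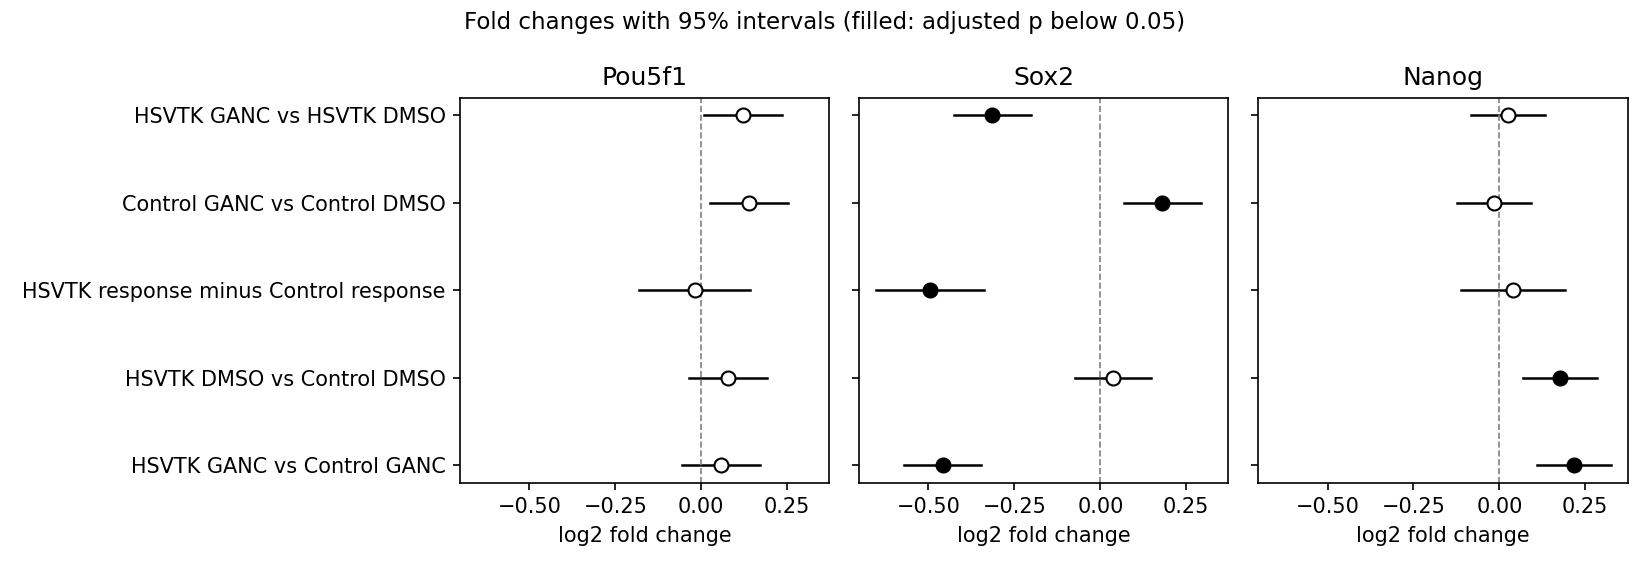
Log2 fold change of each factor (horizontal axes) in each of the 5 comparisons, with 95% intervals as lines and filled points for an adjusted p below 0.05. Sox2 is below 0 in HSVTK cells and above 0 in Control cells, Nanog is above 0 between cell groups, and no Pou5f1 point is filled.

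Levels of different genes were compared per length, in the deposited FPKM (counts scaled by gene length and library total). Pou5f1 averaged 314 ± 8.30 FPKM in HSVTK GANC, 282 ± 4.16 in HSVTK DMSO, 291 ± 19.0 in Control GANC and 262 ± 10.2 in Control DMSO. Nanog averaged 292 ± 12.9 FPKM in HSVTK GANC, 280.3 ± 0.909 in HSVTK DMSO, 242 ± 5.16 in Control GANC and 243 ± 5.95 in Control DMSO. Sox2 averaged 178 ± 9.73 FPKM in HSVTK GANC, 216 ± 3.30 in HSVTK DMSO, 236 ± 0.479 in Control GANC and 207 ± 3.52 in Control DMSO (SD, n = 2 each). Sox2 was the lowest of the 3 in all 8 libraries, and Pou5f1 the highest in 7 of them.

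The ratios of Sox2 to the other factors within a library stood apart in HSVTK GANC. The ratio of Sox2 to Pou5f1 in FPKM was 0.578 and 0.555 in HSVTK GANC, against 0.766 and 0.767 in HSVTK DMSO. In Control cells it was 0.852 and 0.774 with GANC, against 0.758 and 0.820 with DMSO. Both HSVTK GANC libraries lay below the other 6, and the Control groups overlapped.

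The ratio of Nanog to Sox2 was 1.53 and 1.76 in HSVTK GANC, against 1.31 and 1.28 in HSVTK DMSO. It was 1.01 and 1.05 in Control GANC, against 1.17 and 1.18 in Control DMSO. So the 4 groups did not overlap in this ratio, with HSVTK GANC highest and Control GANC lowest. The ratio of Nanog to Pou5f1 ran from 0.809 to 1.01 over all libraries. It overlapped between HSVTK GANC, at 0.885 and 0.978, and Control DMSO, at 0.887 and 0.971. Within each cell group this ratio was lower with GANC without overlap, though by little between the closest libraries. HSVTK DMSO had 1.01 and 0.982, and Control GANC had 0.861 and 0.809. These ratios are a description and were not tested.

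**Figure D3:**
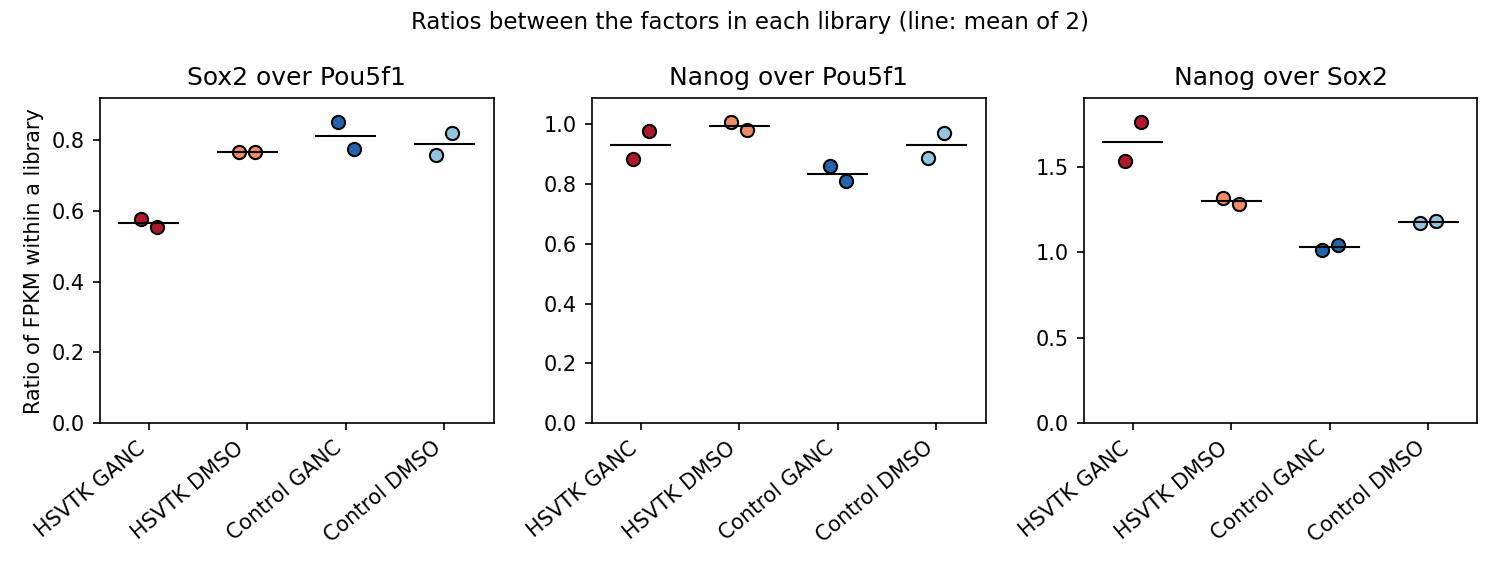
Ratio of the FPKM of 2 factors within each library (vertical axes, from 0), by group, with the mean of 2 libraries as a line. Sox2 over Pou5f1 is lowest and Nanog over Sox2 highest in both HSVTK GANC libraries.

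Overlapping and copied genes contributed few counts. Sox2 lies inside the long noncoding gene Sox2ot on the same strand, which had 74 and 78 counts in HSVTK GANC, 123 and 134 in HSVTK DMSO, 94 and 46 in Control GANC and 98 and 106 in Control DMSO. Sox2ot was lower in HSVTK GANC than in HSVTK DMSO, with a log2 fold change of -0.73 ± 0.25 (SE, adjusted p 0.0290). That call was lost without any single HSVTK library (adjusted p 0.0967 to 0.118) and with DESeq2 (0.0979). Reads of the shared stretch can go to either gene depending on how they were counted, which no source used here gives. Gm19553, antisense to Pou5f1, had 0 to 6 counts in a library, and no source used here says whether counting used strand. Among the copies, Pou5f1-rs4 had 45 counts over all libraries, Nanog-ps1 had 15, and the other 7 listed copies had none.

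Neighbours on the chromosome are given as a description, and their counts were not tested as sets. With GANC, 28.5% of all tested genes were called in HSVTK cells and 8.08% in Control cells. Between cell groups, 33.7% were called under DMSO and 26.1% under GANC. Of the 20 nearest expressed genes around Sox2, 2 rose and 3 fell in HSVTK GANC against HSVTK DMSO, with a median log2 fold change of -0.05. Around Pou5f1, 1 rose and 2 fell, with a median of -0.02. Around Nanog, 3 rose and 7 fell, with a median of -0.14, and the nearest gene after it, Slc2a3, a glucose transporter, had a log2 fold change of -1.16 (adjusted p 6.96e-16) beside a value of 0.03 for Nanog. In Control cells, the neighbours of Pou5f1 included 5 that rose with GANC and none that fell, and their median log2 fold change of 0.17 stood beside 0.14 for Pou5f1. Around Sox2, none rose and 1 fell there, with a median of -0.19, opposite in sign to Sox2, and around Nanog 3 rose and 1 fell, with a median of 0.14. In HSVTK DMSO against Control DMSO, 7 neighbours of Nanog were higher and 3 lower, with a median of 0.05 beside 0.18 for Nanog, while under GANC 2 were higher and 7 lower, with a median of -0.18 beside 0.22. Around Pou5f1, 7 were higher and 2 lower under DMSO, with a median of 0.13 beside 0.08 for Pou5f1.

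Genes known to act with the 3 factors were grouped by role in lists written from general knowledge, with earlier results of these data known. The share over all tested genes was not matched to the lists by expression level. A higher share of called list members is therefore a description and was not tested. Shares over all tested genes are those of the fit of all libraries. Leaving out a library also changes how many of all tested genes are called, so list counts without a library have no matching share here. Transcription factors that activate them were mixed in HSVTK cells: 2 of 14 rose and 3 fell, which is 35.7% called beside 28.5% of all tested genes, with a median log2 fold change of -0.07 beside 0.01. Gbx2, a homeobox factor downstream of LIF signalling, rose to 52.5 ± 9.34 CPM in HSVTK GANC, against 32.0 ± 1.01 CPM in HSVTK DMSO (log2 fold change 0.71, adjusted p 1.73e-06). Foxd3, a forkhead factor of pluripotent cells, rose to 76.0 ± 8.17 CPM, against 48.6 ± 3.47 CPM (0.64, adjusted p 2.70e-06). Zfp143, a zinc-finger factor that binds the Nanog promoter, fell to 38.1 ± 3.55 CPM, against 53.9 ± 1.72 CPM (-0.50, adjusted p 4.63e-05). Klf2, a Krüppel-like factor of naive pluripotency, also fell (-0.35, adjusted p 0.000207). Its relative Klf4 had a log2 fold change of -0.28 (adjusted p 0.00207). The adjusted p of Klf4 was 0.0525 on leaving out HSVTK DMSO replicate 2 and 0.0631 on leaving out HSVTK GANC replicate 2.

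Of 12 tested repressors of the core genes, 2 rose and 5 fell in HSVTK cells, which is 58.3% called beside 28.5% of all tested genes, with a median log2 fold change of -0.16. The count depended on single libraries: fewer repressors were called on leaving out HSVTK DMSO replicate 2 or HSVTK GANC replicate 2. The number of all tested genes called also changes in such fits, so the share of the full fit does not apply to them. Otx2, which drives the exit from naive pluripotency, fell to 6.93 ± 0.560 CPM in HSVTK GANC, against 21.8 ± 2.03 CPM in HSVTK DMSO (log2 fold change -1.65, adjusted p 8.35e-11). Dnmt3a, a de novo DNA methyltransferase, fell to 66.6 ± 1.67 CPM, against 106 ± 0.273 CPM (-0.67, adjusted p 1.30e-08). Nr6a1, the nuclear receptor GCNF that represses Pou5f1 during differentiation, fell as well (-0.51, adjusted p 3.04e-06). The repressors that rose included Ehmt1, a call that did not remain without every single library.

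Many known target genes of the 3 factors were called. Of 23 tested, 4 rose and 11 fell in HSVTK GANC against HSVTK DMSO, which is 65.2% called beside 28.5% of all tested genes, with a median log2 fold change of -0.14. Upp1, uridine phosphorylase, fell to 292 ± 36.1 CPM in HSVTK GANC, against 705 ± 12.4 CPM in HSVTK DMSO (-1.27, adjusted p 7.54e-15). Lefty1, a secreted Nodal inhibitor, fell to 50.4 ± 2.62 CPM, against 99.0 ± 3.79 CPM (-0.97, adjusted p 3.93e-11). Tdgf1, the Nodal co-receptor Cripto, fell to 813 ± 50.4 CPM, against 1303 ± 17.9 CPM (-0.68, adjusted p 7.89e-11).

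The targets Mycn (-0.57), Fbxo15 (-0.35) and Zfp42 (-0.25), the last one encoding the pluripotency marker REX1, also fell, and Gdf3, a growth factor of the TGF-beta family, rose (0.43, adjusted p 1.22e-05). Fgf4, a target with a well-known joint OCT and SOX site in its enhancer, was 197 ± 0.464 CPM in HSVTK GANC and 181 ± 6.72 CPM in HSVTK DMSO, without passing the test (log2 fold change 0.12, adjusted p 0.146). The part of Sox2 in the changes of these targets was not tested.

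Of 28 protein partners, mostly chromatin proteins found with OCT4 or NANOG, 3 rose and 3 fell. This is 21.4% beside 28.5% of all tested genes, and 3 in all were called on leaving out either HSVTK DMSO library. Kdm1a, a histone demethylase, fell (-0.24, adjusted p 0.00162), as did Gatad2b, a NuRD subunit (-0.28, adjusted p 0.00138). Those that rose included Arid1a and Nacc1, and neither call remained without every single library. Of 10 enzymes that modify or degrade the factors, none rose and 4 fell, beside the same 28.5% of all tested genes, and 2 were called without HSVTK DMSO replicate 1. Setd7, a lysine methyltransferase that acts on SOX2, fell to 5.41 ± 0.465 CPM in HSVTK GANC, against 11.3 ± 0.188 CPM in HSVTK DMSO (-1.06, adjusted p 3.09e-06). Itch, a ubiquitin ligase of OCT4, fell too (-0.39, adjusted p 8.50e-05).

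In Control cells GANC also changed genes of these lists, and Upp1, Lefty1, Gdf3 and Dnmt3a moved opposite to their direction in HSVTK cells (highest adjusted p of the difference of responses 1.37e-07). Of the 23 targets, 6 rose and 6 fell, which is 52.2% beside 8.08% of all tested genes, with a median log2 fold change of 0.02, and 7 were called on leaving out either Control DMSO library. Lefty1 rose to 128 ± 0.199 CPM in Control GANC, against 97.4 ± 7.27 CPM in Control DMSO (0.39, adjusted p 0.000765). Upp1 rose as well (0.44, adjusted p 5.77e-05), Gdf3 fell (-0.40, adjusted p 0.000393), and Kdm3a, a histone demethylase, fell (-0.40, adjusted p 6.48e-05). Among activators 3 of 14 rose and 1 fell, with Klf4 at 94.2 ± 3.03 CPM in Control GANC, against 74.5 ± 0.419 CPM in Control DMSO (0.34, adjusted p 0.00282), and with Tbx3 also higher (0.36, adjusted p 0.00202). The activators called were 2 on leaving out either Control DMSO library or Control GANC replicate 2. Of 12 repressors, 2 rose and none fell, with 1 called when Control DMSO replicate 2 or Control GANC replicate 2 was left out. The one with the lower p was Dnmt3a, at 114 ± 4.19 CPM against 87.5 ± 3.93 CPM (0.38, adjusted p 0.000597). Of 28 partners, 6 rose and 2 fell, with 4 called without Control DMSO replicate 1, 2 without Control DMSO replicate 2 and 13 without Control GANC replicate 1. Of 10 stability regulators 1 rose, none did on leaving out Control DMSO replicate 2 or Control GANC replicate 2, and 2 did without Control GANC replicate 1. The shares called were 28.6% of activators, 16.7% of repressors and 28.6% of partners, with 1 of 10 stability regulators, beside the same 8.08% of all tested genes. That share does not apply to the counts without a library. Fewer of all tested genes were also called without either Control DMSO library or Control GANC replicate 2.

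**Figure D4:**
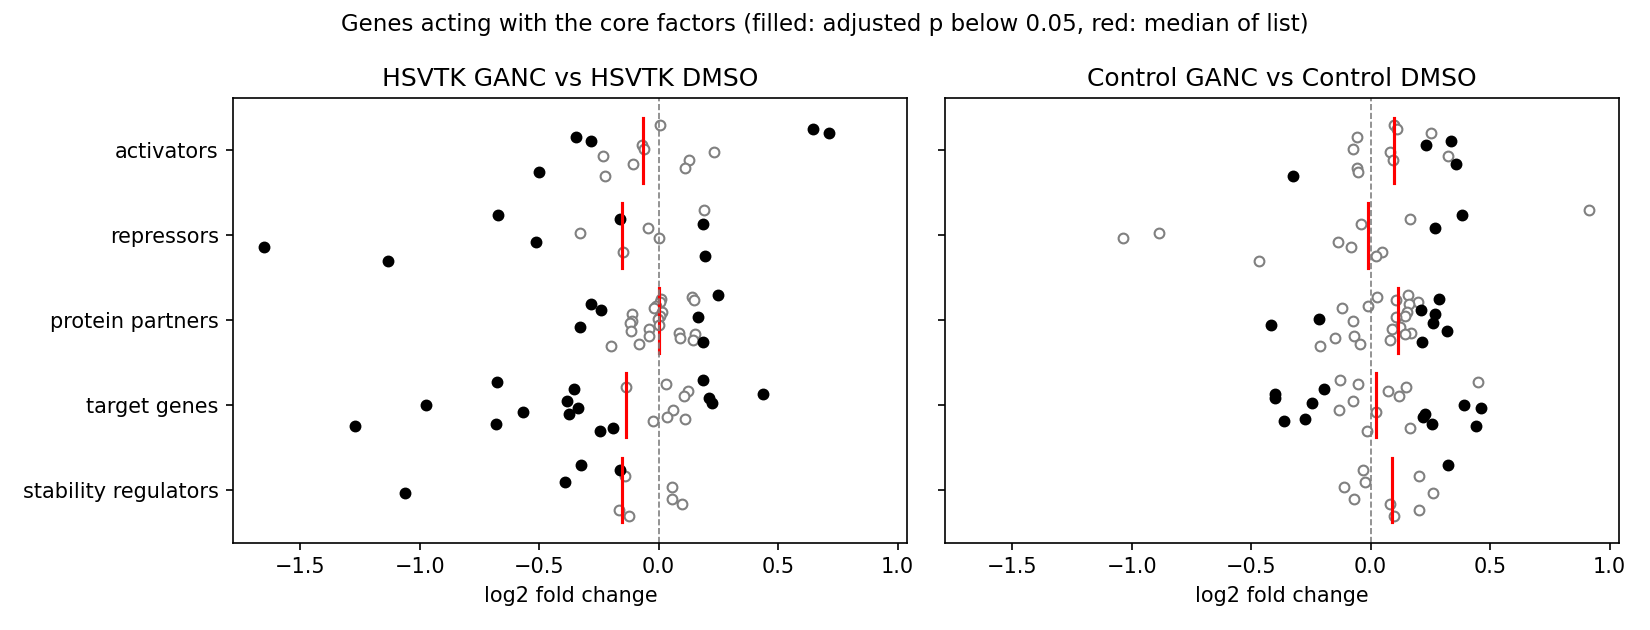
Log2 fold change with GANC (horizontal axes) of the genes of 5 role lists in HSVTK cells (left) and Control cells (right), filled where the adjusted p was below 0.05, with each list's median in red. In HSVTK cells more target genes fell (11) than rose (4), and in Control cells 6 moved each way.

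Genes of these lists also differed between cell groups, activators under DMSO at about the share of all tested genes given below. Tbx3, a T-box factor that activates Nanog, stood at 185 ± 2.15 CPM in HSVTK DMSO, against 48.9 ± 1.57 CPM in Control DMSO (1.92, adjusted p 3.82e-18), and at 172 ± 11.5 CPM in HSVTK GANC, against 62.6 ± 2.62 CPM in Control GANC (1.46, adjusted p 1.83e-15). Tcf7l1, the Wnt pathway repressor that binds the Nanog promoter, was lower in HSVTK cells under DMSO (-0.74, adjusted p 1.18e-07) and under GANC (-0.93, adjusted p 2.99e-09). All tested genes were called at 33.7% under DMSO and 26.1% under GANC in these comparisons. Of 14 activators, 4 were higher and 1 lower under DMSO (35.7%), and 4 higher and 2 lower under GANC (42.9%). The activator called lower under DMSO was Gbx2. Of 12 repressors, 3 were higher and 5 lower under DMSO (66.7%), and 1 higher and 6 lower under GANC (58.3%). Those called higher under DMSO included Otx2, Gata6 and Dnmt3a, unlike Tcf7l1. Of 23 targets, 8 were higher and 10 lower under DMSO (78.3%), and 4 higher and 12 lower under GANC (69.6%).

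Markers of other lineages were low. Gata6, a primitive endoderm factor repressed by NANOG, was 1.52 ± 0.220 CPM in HSVTK GANC, 1.91 ± 0.147 in HSVTK DMSO, 0.0961 ± 0.0517 in Control GANC and 0.176 ± 0.0556 in Control DMSO, and so higher in HSVTK cells under both treatments (adjusted p 3.70e-06 under DMSO). Pax6, a neuroectoderm factor, was 7.54 ± 1.36 CPM in HSVTK GANC, 9.30 ± 0.510 in HSVTK DMSO, 23.9 ± 1.48 in Control GANC and 39.8 ± 0.231 in Control DMSO, and fell in Control cells with GANC (-0.74, adjusted p 6.53e-05). Whether cells outside the stem cell state take part in the differences of Nanog or Sox2 was not tested.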

How the data were processed

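RNA of 8 libraries of mouse embryonic stem cells was sequenced, and groups follow the labels for cell group and treatment. The authors deposited raw counts per gene, not normalized, and a table of FPKM, which divides the same counts by gene length and by the library's total. This was tested on all 456080 FPKM values, which equal that quotient within 1e-05. Per the submitters' processing notes, featureCounts 2.0.1, HISAT2 2.1.0, DESeq2 1.40.2 and fastp 0.23.2 were used with the build GRCm39. Their roles, strand use, the annotation and the handling of multiply matching reads are not stated in the sources used here.

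Counts went into edgeR 4.0.16 (R 4.3.3) and its quasi-likelihood F test, with TMM scaling and the filterByExpr filter (17976 genes kept), a mean per group and all 8 libraries. There were 5 comparisons: GANC against DMSO within each of HSVTK and Control cells, the interaction of drug and cell group, and HSVTK against Control cells within each treatment. The p-values were adjusted over all tested genes by Benjamini-Hochberg, with a call below 0.05. The biological coefficient of variation was 6.31%. CPM values are counts per 1000000 with TMM factors, and the SE was derived from the log2 fold change and its F. Alternatives were RLE and library size scaling, no filter, DESeq2 1.42.0, limma 3.58.1 on log2(FPKM + 1) or log2(FPKM + 0.1) with and without a filter at 0.5 FPKM, a fit of the compared libraries, a replicate block and each library left out. The steps were tested on simulated data.

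The 3 genes, the 14 lists (160 symbols, all found in the files) and the tests were chosen with earlier results of these data known. Named list genes are the 4 called members in each direction with the lowest adjusted p per list and comparison, plus a short set of always eligible genes, and not every eligible gene is printed. A gene among those most correlated with Pou5f1 is not reported here. Neighbours and overlaps came from GENCODE vM21 on GRCm38, matched by Ensembl ID for 97.7% of tested genes, with up to 10 genes of a mean CPM of at least 1 on each side. No column of per-sample values was left out.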

Additional observations from a re-analysis of the deposited data

Results flagged for a closer look

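For 11 of the 26 tested genes among the 3 factors and the genes always eligible for naming, or 42.3% beside 25.6% of all tested genes, the response to GANC differed between HSVTK and Control cells by the test of the difference in edgeR. The values below are the HSVTK response minus the Control response on the log2 scale. Sox2 differed by -0.50 (adjusted p 1.84e-05), with 371 and 343 CPM in HSVTK GANC, 439 and 448 in HSVTK DMSO, 488 and 493 in Control GANC and 428 and 437 in Control DMSO.

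Otx2, the factor of the exit from naive pluripotency, differed by -1.57 (adjusted p 1.61e-07), with means of 6.93 CPM in HSVTK GANC, 21.8 in HSVTK DMSO, 10.3 in Control GANC and 10.9 in Control DMSO. Lefty1 differed by -1.36 (adjusted p 3.92e-11), since it fell with GANC in HSVTK cells and rose in Control cells. Among activators of the core genes, Klf4 differed by -0.62 (adjusted p 1.96e-05), Tbx3 by -0.46 (adjusted p 0.000539) and Klf2 by -0.29 (adjusted p 0.0224). Among target genes, Utf1 differed by -0.36 (adjusted p 0.00737), Zfp42 by -0.23 (adjusted p 0.0146) and Spp1, an osteopontin gene, by 0.39 (adjusted p 0.000310). The SOX family gene Sox15 differed by -0.63 (adjusted p 0.0143), and the 2C-like gene Zscan4c by 1.10 (adjusted p 0.00208).

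The calls of 4 of these genes rested on single libraries. The Zfp42 difference lost its call on leaving out any of 5 libraries, namely either Control DMSO library (adjusted p 0.0585 and 0.0679), either HSVTK DMSO library (0.0601 and 0.0860) or HSVTK GANC replicate 1 (0.0562). The Sox15 difference lost it without Control GANC replicate 2 (adjusted p 0.0532), HSVTK DMSO replicate 2 (0.0560) or HSVTK GANC replicate 1 (0.0856). The adjusted p of the Utf1 difference was 0.0554 when HSVTK DMSO replicate 1 was left out, 0.0737 when HSVTK GANC replicate 2 was, and 0.0752 in limma on log2(FPKM + 1). For Klf2 it was 0.0976 without Control DMSO replicate 2, 0.0725 without Control GANC replicate 2, 0.130 without HSVTK DMSO replicate 2, 0.129 without HSVTK GANC replicate 2 and 0.0831 in the same limma setting. The calls of the other 7 genes remained without each single library.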

How the results depend on the processing

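Sox2 kept its direction and call in HSVTK GANC against HSVTK DMSO, against Control GANC and in the difference of responses under every alternative run, with log2 values without single libraries of -0.37 to -0.26, -0.52 to -0.40 and -0.55 to -0.44. Its rise in Control cells lost its call with limma on log2(FPKM + 1) (0.19), on log2(FPKM + 0.1) (0.19) and without a filter (0.19), with only the libraries compared (0.18) and with the replicate block (0.18, adjusted p 0.0533), while DESeq2 kept it. Without single libraries it was 0.17 to 0.20. Nanog under DMSO between cell groups was 0.16 to 0.21. Pou5f1 gained a call in HSVTK cells with library size scaling (0.15), and without single libraries was 0.0916 to 0.15 there and 0.0632 to 0.21 in Control cells. Values near 0 changed sign. The Pou5f1 difference of responses was 0.0056 with library size scaling and 0.0060 in each limma setting. Without single libraries it was -0.0935 to 0.0509, and Pou5f1 in HSVTK GANC against Control GANC was -0.0168 to 0.13. Nanog was then -0.0441 to 0.0169 with GANC in Control cells, -0.0191 to 0.0680 in HSVTK cells, -0.0047 to 0.0825 for the difference and -0.0168 to 0.0268 for the mean of both drug responses. The cause was not tested.

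Genes called with GANC in Control cells were 1453, against 417 with limma on log2(FPKM + 1), 393 on log2(FPKM + 0.1), 29 without a filter, 942 with only the libraries compared and 431 to 1949 without single libraries. Limma without a filter, which tests more genes, called 2615 in place of 5119 with GANC in HSVTK cells, 1981 in place of 4595 for the difference of responses, 3652 in place of 6060 between cell groups under DMSO and 2288 in place of 4685 under GANC. Without single libraries these counts were 3295 to 5637, 3460 to 4608, 4358 to 6571 and 2982 to 4535. With GANC in HSVTK cells, 3375 were called without HSVTK DMSO replicate 1 and 3295 without replicate 2. Between cell groups under GANC, 2982 were called without HSVTK GANC replicate 2. With GANC in Control cells, 596 were called without Control DMSO replicate 1, 431 without replicate 2 and 735 without Control GANC replicate 2. Library size scaling turned the split under GANC between cell groups from 2004 higher and 2681 lower into 2579 higher and 2190 lower. It moved the median of all tested genes by at most 0.05. Of 1176 recomputed list counts, 199 moved by over 1.5 times, 46 of them in limma without a filter.

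No pairing of libraries by replicate number was seen: deviations from group means correlated from -0.17 to 0.10 between groups over 10093 genes. The labels do not say whether libraries of the same number were handled together, and these correlations cannot exclude it. The replicate block changed no other call of the 3 factors. With 2 libraries per group, the 95% intervals of Pou5f1 with GANC began only 0.01 and 0.03 above 0.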

Other observations

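Relatives of Pou5f1 and Sox2 were expressed at far lower levels. Of 14 other POU genes, 10 were tested, and with GANC in HSVTK cells 2 rose and 2 fell, or 4 of 10 called beside 28.5% of all tested genes, though leaving out HSVTK DMSO replicate 2 or HSVTK GANC replicate 2 left 2 called. Pou4f2, a sensory neuron factor, rose to 12.2 ± 0.486 CPM in HSVTK GANC, against 5.92 ± 1.23 CPM in HSVTK DMSO (log2 fold change 1.04, adjusted p 5.15e-06). Of 18 other SOX genes, 14 were tested, and 2 rose and 3 fell, or 35.7%, with 2 called on leaving out HSVTK DMSO replicate 2 and 3 on leaving out HSVTK GANC replicate 2. The 2 SOX genes that rose were Sox3 and Sox7, and neither call remained without every single library. The median log2 fold change of the SOX list was 0.12. Sox21 fell to 2.70 ± 0.896 CPM, against 5.96 ± 0.208 CPM (-1.15, adjusted p 3.46e-05), and Sox12 to 30.7 ± 4.61 CPM, against 49.0 ± 0.0412 CPM (-0.67, adjusted p 2.37e-06). Sox15, a close relative of Sox2, was 9.91 ± 1.46 CPM, against 13.6 ± 0.359 CPM (-0.46, adjusted p 0.00957), with an adjusted p of 0.0774 when HSVTK DMSO replicate 2 was left out and 0.158 when HSVTK GANC replicate 1 was.

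The genes with the profile most like a factor, by Pearson correlation of log2 CPM over the 8 libraries among 8332 genes of at least 10 CPM, are given as a description, since libraries of a group share cells and treatment. They were Mapk3 (0.99), Palm (0.99), Anxa11 (0.98), Rap1gds1 (0.98) and Mov10 (0.98) for Sox2. For Pou5f1 they included Aamp (0.97), Snx3 (0.95), Ptpa (0.95) and Spint1 (0.94), and for Nanog they were Snu13 (0.99), Hikeshi (0.99), Dad1 (0.98), Lactb2 (0.98) and Prepl (0.98). The most opposed were Slc35e2 (-0.98), Ncbp2 (-0.98) and Sdha (-0.98) for Sox2, Cep152 (-0.99), Lin9 (-0.98) and Metap2 (-0.97) for Pou5f1, and Entr1 (-0.98), Foxp1 (-0.98) and Sesn3 (-0.98) for Nanog. Between the factors themselves the values were -0.70 for Sox2 and Nanog, -0.32 for Pou5f1 and Sox2, and 0.39 for Pou5f1 and Nanog.

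After the values above were seen, both drug comparisons were averaged in the same fit. The mean log2 response to GANC over the cell groups was 0.13 ± 0.04 (SE, adjusted p 0.0272 in edgeR) for Pou5f1, where 12.6% of tested genes were called. The call was lost on leaving out either Control DMSO library (adjusted p 0.0522 and 0.181), Control GANC replicate 2 (0.113), either HSVTK DMSO library (0.137 and 0.0943) or HSVTK GANC replicate 1 (0.0955), and in limma on log2(FPKM + 1) (0.0514). The mean was -0.07 for Sox2 (adjusted p 0.280) and 0.01 for Nanog (adjusted p 0.951). For Nanog, leaving out Control DMSO replicate 1, Control GANC replicate 2 or HSVTK GANC replicate 2 gave -0.0045, -0.0125 and -0.0168. Averaged over both treatments, HSVTK cells differed from Control cells by 0.20 for Nanog (adjusted p 0.000119 in edgeR), a call kept without each single library. For Pou5f1 the value was 0.07 (adjusted p 0.200), and 34.2% of tested genes were called. For Sox2 it was -0.21 (adjusted p 7.78e-05). This averages 0.04 under DMSO and -0.46 under GANC, and so describes neither treatment alone.

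The locus of Nanog on chromosome 6 also holds Dppa3, a maternal-effect gene of naive cells. It was 1.68 ± 0.365 CPM in HSVTK GANC, 2.70 ± 0.687 in HSVTK DMSO, 9.74 ± 0.771 in Control GANC and 7.12 ± 0.686 in Control DMSO. Among the 20 neighbours of Nanog it had the lowest log2 fold change of HSVTK against Control cells, at -1.40 under DMSO (adjusted p 1.96e-06) and -2.52 under GANC (adjusted p 1.78e-10), while Nanog was higher in HSVTK cells under both treatments.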
